A study of Mus musculus with 6 samples.

Results

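The proteasome subunit genes were examined in primary neural stem cells of E13.5 mouse embryos, in 3 WT libraries and 3 PML knockout libraries (Pml-/-). Members are the rows of the count table whose symbol is Psma, Psmb, Psmc or Psmd followed by a number, without Psmb8, Psmb9 and Psmb10. That gives 36 of 24421 gene rows, 16 of the core particle (8 Psma, 8 Psmb) and 20 of the regulatory particle (6 Psmc, 14 Psmd). All cells grew as neurospheres, floating clusters of progenitors, in 20% oxygen with EGF and FGF2 at 20 ng/ml each, carry the same batch label, and were lysed on day 4 after dissociation. The series title asks how the loss of PML, the protein that builds PML nuclear bodies, affects differentiation, stress tolerance and mitochondria. The labels state neither which part of Pml was removed nor whether replicates came from separate embryos or cultures, so p-values measure only the spread between these libraries, which may be technical.

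The proteasome is the protease that degrades proteins tagged with ubiquitin. Its core is a barrel of stacked rings: Psma genes encode the outer alpha subunits, which gate the entry, and Psmb genes encode the inner beta subunits, of which Psmb5, Psmb6 and Psmb7 carry the proteolytic sites. The regulatory particle sits on the end of the barrel. Its Psmc subunits form a ring of ATPases that unfolds substrates and feeds them into the core, and its Psmd subunits bind ubiquitin, remove it or hold the particle together. In many cells the transcription factor encoded by Nfe2l1 raises subunit genes together when proteasome activity falls, by way of antioxidant response elements in their promoters.

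Subunit promoters from RefSeq (GRCm38.p6) were available for 29 of the 36 members. Upstream sequence is shown for the 4 subunits that were lower in every knockout library than in any WT library at an unadjusted p under 0.05 and had 1 RefSeq start with 120 bases outside annotated exons. It is also shown for Psma5, the subunit that was higher in every knockout library. Each is 120 bases, 5′ to 3′ on the gene's strand, ending at the RefSeq start or, where a GENCODE exon begins earlier, just before that exon. Capitals mark TGANNNNGC, the antioxidant response element core, or CCGGAA, the core bound by ETS factors. Both strands were searched, and in the printed stretches the matches do not overlap.
Psmb6: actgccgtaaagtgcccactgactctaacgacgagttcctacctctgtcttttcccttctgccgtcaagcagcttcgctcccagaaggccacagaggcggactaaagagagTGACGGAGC
Psmc4: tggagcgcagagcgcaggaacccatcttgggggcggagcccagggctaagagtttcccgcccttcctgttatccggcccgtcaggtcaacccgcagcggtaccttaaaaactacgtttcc
Psmc5: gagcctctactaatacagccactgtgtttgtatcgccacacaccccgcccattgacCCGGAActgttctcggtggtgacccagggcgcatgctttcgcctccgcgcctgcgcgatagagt
Psmd6: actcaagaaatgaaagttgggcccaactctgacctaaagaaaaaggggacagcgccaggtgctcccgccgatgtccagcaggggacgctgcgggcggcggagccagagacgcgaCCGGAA
Psma5: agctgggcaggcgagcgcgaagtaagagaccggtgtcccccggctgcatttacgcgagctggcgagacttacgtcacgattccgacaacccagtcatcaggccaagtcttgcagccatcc
These lie at chr11:70525237-70525356 (plus strand), chr7:28050102-28050221 (minus), chr11:106256034-106256153 (plus), chr14:14120985-14121104 (minus) and chr3:108256806-108256925 (plus). The Psmc4 and Psma5 stretches hold neither motif. The 300 bases around the Psma5 start held 1 match of each, outside the printed stretch, and those of Psmc4 held neither. Over the 300 bases around the start, 17 of the 29 members with a promoter (58.6%) held TGANNNNGC at 1 start or more, against 41.3% of all 32851 RefSeq promoters. CCGGAA was in 15 of the 29 (51.7%), against 14.9% of all promoters. CCAAT was in 12 (41.4%, against 37.4%) and GGGCGG in 18 (62.1%, against 35.7%). Members were counted by gene and the whole set by promoter, so a member with several starts had more chances of a match. CCGGAA was searched after these promoters had been looked at, and a match is a run of letters, not a measured binding site.

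Of the 36 members, 34 had enough counts to be tested. Psma8, the alpha subunit of male germ cells, and Psmb11, the beta subunit of thymic cortical epithelium, had 0 reads in every library. That allows up to 3 reads, or 0.507 to 1.69 per 1000000 of the library totals. Levels given below in counts per 1000000 (CPM) include library factors, which this limit does not. Members took 9568 counts in WT replicate 2 and 25229 to 39086 in the other libraries, out of totals of 1775152 to 5917505. The WT libraries were uneven. Rn45s, the row of the ribosomal RNA precursor, took 41.9%, 39.8% and 19.6% of WT replicates 1, 2 and 3 (exact Clopper-Pearson 95% intervals 41.8 to 41.9, 39.7 to 39.9 and 19.6 to 19.7) and 14.6% to 17.6% of knockout libraries. Of 20 hepatocyte marker genes, all in the table, 18 were tested. All 18 had lower values in the knockout at an unadjusted p under 0.05 (9.19% of all genes did) and 0 passed after adjustment. Their summed level per 1000000 counts outside Rn45s was 810.2, 1209 and 254.2 in WT replicates 1 to 3 and 130.8 to 174.1 in the knockout; 2 of them, Afp and Tat, were at 0 in some libraries. The 12 neural stem cell markers in the table summed to 8765 to 10200 in WT and 10500 to 13400 in the knockout, with Sox2, Nes and Pax6 read in every library and Msi1 at 0 in some. Microglial markers summed to at most 39.31, in WT replicate 2, and no hemoglobin gene of the erythroid list had a read. In bulk RNA, fewer cells of a type and less RNA per cell cannot be told apart. Reads of Pml numbered 36, 35 and 44 in WT and 14, 23 and 5 in knockout libraries. What part the Rn45s and hepatocyte differences have in the results below was not tested, and beside many of those results stands the value without WT replicates 1 and 2.

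Most proteasome subunits had a fitted level lower in PML knockout than in WT cells (23 of 34, or 15 of 34 when scaled by plain library totals), but no subunit passed the test across all genes. By edgeR's quasi-likelihood test with Benjamini-Hochberg adjustment, 0 of 34 members passed at an adjusted p of 0.05, as did 0.00884% of the 11317 genes tested. At an unadjusted p under 0.05, 10 members were lower and 1 was higher, that is 10 of 34 against 9.19% of all genes lower and 1 of 34 against 6.7% higher. The 3 knockout libraries all lay below the 3 WT libraries for 14 of 34 members, against 11.3% of all genes, and all above for 1, against 12.3%. On plain library totals these counts were 5 and 2, against 3.83% and 24.1% of all genes, and per 1000000 counts outside Rn45s they were 11 and 1, against 8.93% and 14.9%. The 23 of 34 members with a log2 fold change below 0 compare with 50.3% of all genes, and the members' median was -0.42 beside -0.01 for all genes. With plain library totals as scale, the members' median was 0.03. The median of all genes moved to 0.43 on that scale, and 23 of 34 members lay below it. DESeq2 (adjusted p under 0.05) called 2 members lower, Psmc3 and Psmc5, against 1.97% of all genes, and 0 higher, against 0.928%. edgeR's exact test called the same 2 lower (1.86% of all genes). In the authors' deposited table, 1 of 34 members was lower at an adjusted p under 0.05 (Psmc5, log2 fold change -1.25, adjusted p 0.0332), against 1.81% of the genes it tests.

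**Figure D1:**
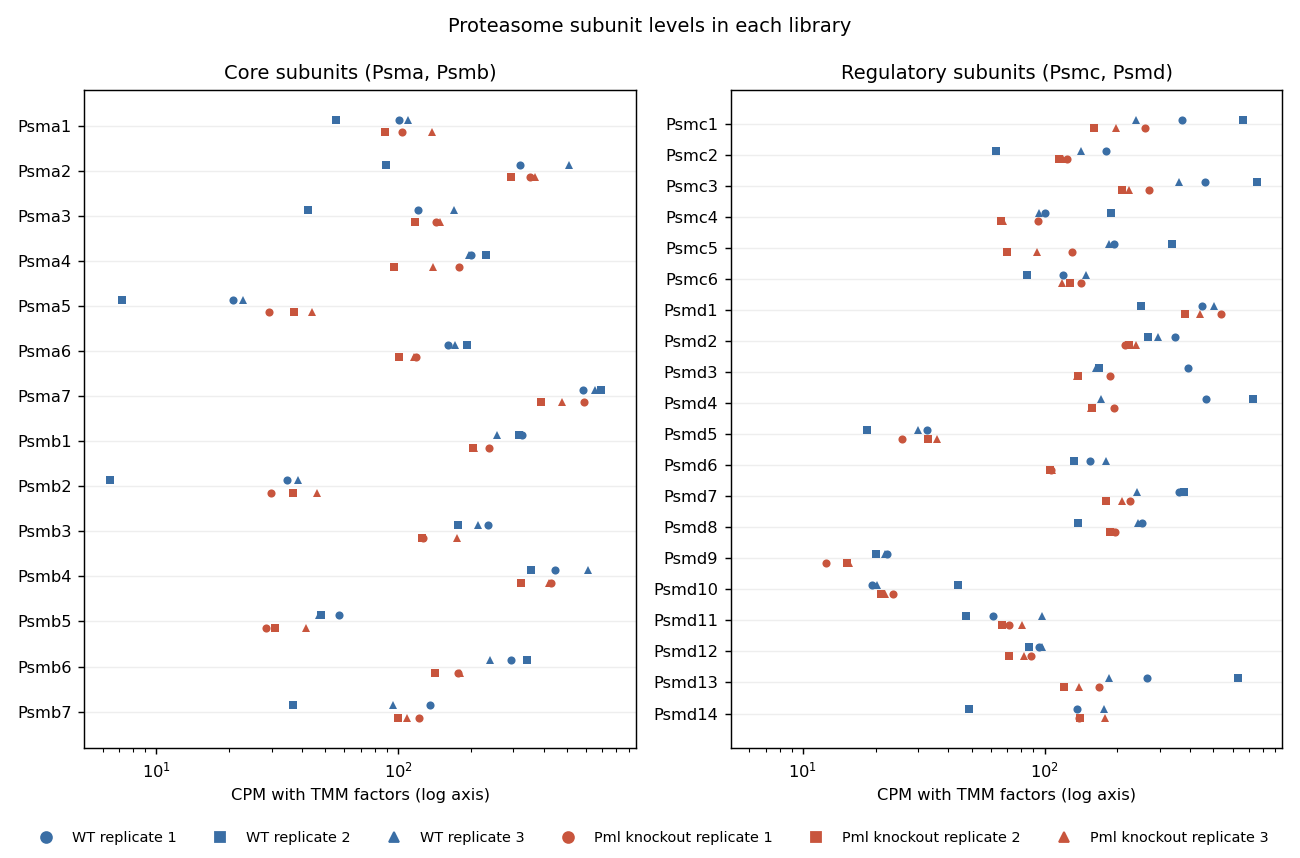
Level of each tested subunit in each library, in CPM with library factors on a log axis; blue symbols are WT and red symbols Pml knockout libraries, and circles, squares and triangles are replicates 1, 2 and 3. All red symbols lie left of all blue symbols for 14 subunits, and the blue square, WT replicate 2, is often the farthest blue point to either side.

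Of the 6 ATPases of the ring, 4 had lower levels in the knockout at an unadjusted p under 0.05, against 9.19% of all genes, and 0 passed after adjustment. Psmc5, an ATPase whose gene lies on chromosome 11 (106256154 to 106263120, plus strand, 11 exons), had 193.5, 337.3 and 184.3 CPM in WT replicates 1, 2 and 3 and 129.8, 69.9 and 93.1 CPM in knockout replicates 1, 2 and 3. The groups did not overlap, and WT replicate 2 was the highest. The mean went from 238 ± 85.8 to 97.6 ± 30.2 CPM (SD, n = 3 each), a log2 fold change of -1.28 (SE 0.34, edgeR adjusted p 0.208). Its log2 fold change was below 0 under all 18 alternatives, between -1.53 and -0.79, and was -0.92 without WT replicates 1 and 2. Over the alternatives its adjusted p ran from 0.0257 (edgeR without WT replicate 3) to 0.725, including 0.0298 by DESeq2. Psmc3 (chromosome 2, 91054009 to 91066369, plus strand) had 460.1, 760.2 and 360.0 CPM in WT and 269.5, 209.8 and 223.0 CPM in the knockout. These groups did not overlap either, and the log2 fold change was -1.17 (SE 0.32, edgeR adjusted p 0.212). Over the alternatives it lay between -1.38, without WT replicate 3, and -0.62, without WT replicates 1 and 2. The adjusted p of Psmc3 ran from 0.0192 (edgeR without WT replicate 3) to 0.725, including 0.0351 by DESeq2. The last exon of Psmc3 overlaps an exon of Slc39a13 on the other strand. Since the strand setting of the counting is not stated, it is not known whether the overlap affected the Psmc3 count.

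Psmc1 and Psmc4 leaned on WT replicate 2. Psmc1 had 370.6, 661.1 and 238.8 CPM in WT and 259.7, 160.6 and 196.9 CPM in the knockout (log2 fold change -1.04, SE 0.38, edgeR adjusted p 0.244). Knockout replicate 1 lay above WT replicate 3, so the groups overlapped. Against WT replicate 3 alone the log2 fold change of Psmc1 was -0.22. Psmc4 had 100.6, 188.6 and 94.7 CPM in WT and 94.2, 66.0 and 67.6 CPM in the knockout, which do not overlap by a narrow margin (log2 fold change -0.74, SE 0.33). It was -0.36 without WT replicate 2 and -0.32 without WT replicates 1 and 2. On library totals the groups of Psmc4 overlapped. The remaining ATPases were lowest in WT replicate 2. Psmc2 had 178.9, 63.2 and 141.2 CPM in WT and 115.3 to 124.1 CPM in the knockout, and Psmc6 had 118.8, 84.7 and 148.4 CPM in WT and 118.6 to 142.0 CPM in the knockout. Their log2 fold changes were -0.11 (SE 0.35) and 0.14 (SE 0.27), each smaller than its SE.

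The Psmd subunits with the largest fitted differences, Psmd4 and Psmd13, owed much of them to WT replicates 1 and 2. Psmd4, a ubiquitin receptor of the regulatory particle (chromosome 3, 95032694 to 95042614, minus strand), had 467.9, 732.2 and 171.4 CPM in WT and 194.7, 156.5 and 155.6 CPM in the knockout. WT replicates 1 and 2 stood far above the other 4 libraries, and WT replicate 3 lay within the knockout range. The log2 fold change of -1.43 (SE 0.45, edgeR adjusted p 0.228) was -1.83 without WT replicate 3 and -0.02 without WT replicates 1 and 2. Psmd13, a structural subunit (chromosome 7, 140881968 to 140898643, plus strand), had 266.4, 632.3 and 185.0 CPM in WT and 168.5, 119.9 and 138.9 CPM in the knockout. The groups did not overlap, but WT replicate 3 was close to knockout replicate 1. Its log2 fold change was -1.34 (SE 0.42, edgeR adjusted p 0.231) and -0.38 without WT replicates 1 and 2. Psmd3, a structural subunit, had 391.7 CPM in WT replicate 1 and 167.9 and 162.8 CPM in WT replicates 2 and 3, against 135.7 to 186.4 CPM in the knockout, so 1 WT library set its difference. The log2 fold change of -0.65 (SE 0.37) was -0.11 without WT replicate 1 and -0.09 without WT replicates 1 and 2.

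Psmd6 and Psmd2 had smaller differences in which no single WT library stood far from the others. Psmd6, which helps hold the regulatory particle together, had 153.6, 132.7 and 180.4 CPM in WT and 106.8, 105.0 and 107.1 CPM in the knockout. All knockout libraries were lower, with little spread among them, and the log2 fold change was -0.55 (SE 0.24) and -0.76 without WT replicates 1 and 2. Psmd2, the large scaffold subunit that also binds ubiquitin-like domains, had 347.9, 267.0 and 296.0 CPM in WT and 215.6, 223.4 and 239.4 CPM in the knockout (log2 fold change -0.43, SE 0.24; -0.39 without WT replicates 1 and 2). Its groups did not overlap. On library totals the groups of Psmd6 and Psmd2 both overlapped, and those of Psmd2 also overlapped per 1000000 counts outside Rn45s. Psmd7, the partner of the deubiquitinase Psmd14, had 361.6, 378.1 and 240.8 CPM in WT and 226.3, 180.2 and 208.7 CPM in the knockout. These did not overlap, and the log2 fold change of -0.67 (SE 0.27, edgeR adjusted p 0.275) was -0.23 without WT replicates 1 and 2. On library totals the value was -0.165. Psmd14 itself, the subunit that removes ubiquitin from substrates, was the tested member with the highest log2 fold change among those with at least 10 reads in every library. It had 135.7, 48.8 and 175.5 CPM in WT and 139.3, 139.7 and 178.0 CPM in the knockout. The value of 0.33 (SE 0.40) came from WT replicate 2, without which it was -0.03. The large scaffold subunit Psmd1 and the subunits Psmd8, Psmd11 and Psmd12 had log2 fold changes from -0.21 to 0.18, all smaller than their SE.

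The symbol rule also takes in 3 assembly chaperones of the regulatory particle, which bind ATPases during assembly and are absent from the finished proteasome. Psmd9 had 22.3, 20.0 and 21.8 CPM in WT and 12.5, 15.2 and 15.5 CPM in the knockout. Its groups did not overlap and the WT libraries were close together, with a log2 fold change of -0.57 (SE 0.31, edgeR adjusted p 0.384) and -0.60 without WT replicates 1 and 2. On library totals the value was -0.13 and the groups overlapped. Psmd10, the oncoprotein gankyrin, had 19.3, 44.0 and 20.2 CPM in WT and 23.6, 21.1 and 21.8 CPM in the knockout. Apart from WT replicate 2 its libraries were alike, and its log2 fold change of -0.29 (SE 0.37) turned to 0.16 without that library. Psmd5 had 32.7, 18.4 and 30.0 CPM in WT and 25.7, 33.0 and 35.8 CPM in the knockout, with overlapping groups (log2 fold change 0.20, SE 0.32).

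In the core, groups did not overlap for the proteolytic subunits Psmb6 and Psmb5 and overlapped for Psmb7. Psmb6, the caspase-like subunit (chromosome 11, 70525367 to 70527858, plus strand), whose upstream sequence ends in the antioxidant response element core shown above, had 293.5, 341.3 and 241.3 CPM in WT and 177.5, 141.6 and 180.9 CPM in the knockout. All knockout libraries were lower. The mean went from 292 ± 50.04 to 167 ± 21.8 CPM (SD, n = 3 each), a log2 fold change of -0.81 (SE 0.26, edgeR adjusted p 0.231). It stayed between -0.93 and -0.32 over 18 alternatives, and was -0.53 without WT replicates 1 and 2. Psmb5, the chymotrypsin-like subunit and main target of proteasome inhibitor drugs, had 57.1, 48.0 and 47.0 CPM in WT and 28.4, 30.8 and 41.5 CPM in the knockout. Its groups did not overlap (log2 fold change -0.60, SE 0.28, edgeR adjusted p 0.336). The value was -0.48 without WT replicates 1 and 2, -0.26 with length and G+C trends removed and -0.13 on library totals. On library totals the groups of Psmb5 overlapped. Psmb7, the trypsin-like subunit, had 135.1, 36.8 and 94.9 CPM in WT and 122.3, 100.1 and 109.0 CPM in the knockout. Only WT replicate 2 stood apart, and the log2 fold change of 0.30 (SE 0.40) was -0.06 without it. GENCODE M21 lists processed pseudogenes of Psmb5, Psmb6 and Psmb7 that have no row in the table, and an exon of Nek6 overlaps the last exon of Psmb7 on the other strand, so these 3 counts are less certain. Pseudogenes were looked up by subunit symbol only, so copies of any member under other names were not looked for.

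Of the 4 tested beta subunits without proteolytic sites, 2 were lower in every knockout library than in any WT library, against 11.3% of all genes. Psmb3 had 235.7, 177.5 and 213.6 CPM in WT and 126.5, 125.2 and 175.0 CPM in the knockout (log2 fold change -0.56, SE 0.26), with -0.59 without WT replicates 1 and 2, -0.29 with the same trends removed and -0.11 on library totals. Psmb1 had 325.0, 315.8 and 257.4 CPM in WT and 238.9, 204.6 and 206.6 CPM in the knockout (log2 fold change -0.47, SE 0.24; -0.25 without WT replicates 1 and 2). On library totals the groups of both overlapped. Psmb4 overlapped, with 354.1 to 609.9 CPM in WT and 321.4 to 431.5 CPM in the knockout. Psmb2 had 34.8, 6.4 and 38.6 CPM in WT and 29.8 to 46.4 CPM in the knockout, where again WT replicate 2 alone was low.

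The alpha ring held both directions. Psma6 had 160.7, 193.4 and 171.4 CPM in WT and 118.7, 100.9 and 115.9 CPM in the knockout. The groups did not overlap and the spread within each was small, with a log2 fold change of -0.65 (SE 0.24, edgeR adjusted p 0.245). Psma4 had 200.01, 231.0 and 196.1 CPM in WT and 179.5, 96.3 and 139.8 CPM in the knockout, also without overlap (log2 fold change -0.59, SE 0.28). For both, leaving out WT replicates 1 and 2 changed little (-0.62 and -0.50). On library totals the values were -0.19 for Psma6 and -0.14 for Psma4, and the groups of both overlapped. Psma5 was the only member higher in every knockout library, with 20.8, 7.2 and 22.9 CPM in WT and 29.3, 37.3 and 44.2 CPM in the knockout. Its mean went from 17.0 ± 8.54 to 36.9 ± 7.41 CPM (SD, n = 3 each), a log2 fold change of 1.06 (SE 0.40, edgeR adjusted p 0.255). It was 0.69 without WT replicates 1 and 2, and above 0 under all 18 alternatives. WT replicate 2 held 9 reads of Psma5 and the other libraries 70 to 296, so its level in that library is the least certain. Psma2, Psma3 and Psma1 were lowest in WT replicate 2, at 89.5, 42.4 and 55.2 CPM, against 293.5 to 367.7, 117.4 to 149.5 and 87.9 to 138.0 CPM in the knockout. Against WT replicate 3 alone, their log2 fold changes were -0.59, -0.32 and 0.00. Psma7 had 580.7 to 690.6 CPM in WT and 389.0 to 587.8 CPM in the knockout, an overlap by 1 library (log2 fold change -0.40, SE 0.27).

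**Figure D2:**
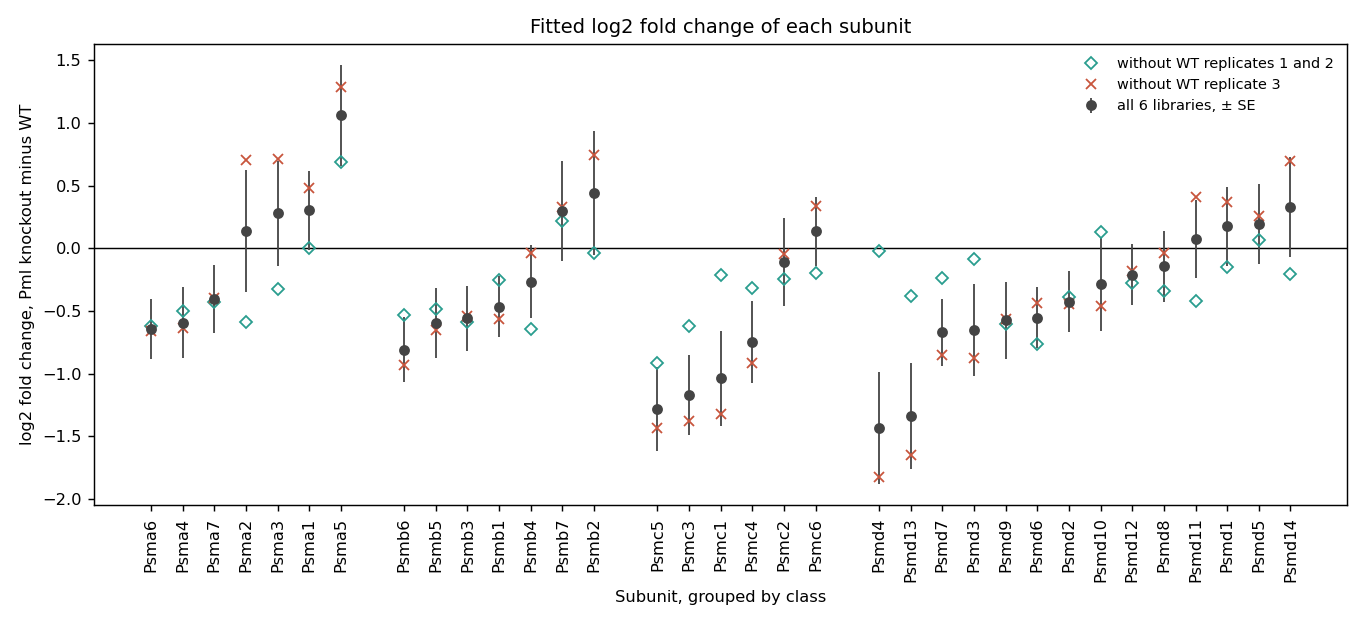
Fitted log2 fold change of each tested subunit, Pml knockout minus WT, in order within each class; filled circles with SE bars use all 6 libraries, open diamonds leave out WT replicates 1 and 2, and crosses leave out WT replicate 3. Psmd4 moves from -1.83 (cross) to -0.02 (diamond), while Psma6 stays at about the same place.

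Core and regulatory genes were then compared. The median log2 fold change was -0.34 over 14 tested core genes and -0.49 over 20 regulatory genes, and 8 of 14 and 15 of 20 were below 0. Groups did not overlap, with the knockout lower, for 6 of 14 core and 8 of 20 regulatory genes, against 11.3% of all genes. On library totals these counts were 1 of 14 and 4 of 20, against 3.83%. By class, the medians were 0.14 for Psma, -0.47 for Psmb, -0.89 for Psmc and -0.36 for Psmd. Without WT replicates 1 and 2 they were -0.43, -0.48, -0.28 and -0.25 in the same order, so the order of the classes rested on those libraries. The core minus regulatory difference of medians was 0.15. It turned to -0.20 without WT replicates 1 and 2, with medians of -0.46 for core and -0.26 for regulatory genes. Since the members were chosen with results known, both particles were compared by these values and not by a test.

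Within each library, the mean of core genes minus that of regulatory genes, each relative to the gene's own average over 6 libraries (log2), was -0.07, -0.68 and 0.18 in WT replicates 1, 2 and 3. In knockout replicates 1, 2 and 3 it was 0.11, 0.13 and 0.33. The means were -0.19 ± 0.44 in WT and 0.19 ± 0.13 in the knockout (SD, n = 3 each), a difference of 0.38 beside a pooled SD of 0.32. WT replicate 2 stood apart, and WT replicate 3 lay among the knockout libraries. Summed core counts were 0.677, 0.512 and 0.929 times the summed regulatory counts in WT, and 0.832, 0.805 and 0.916 times in the knockout. Core counts per 1000000 outside Rn45s were 3969, 3032 and 4645 in WT and 3640, 2971 and 3752 in the knockout. Those of regulatory genes were 5862, 5924 and 5000.0 in WT and 4373, 3690 and 4095 in the knockout. On this scale the regulatory sums did not overlap between genotypes, and the core sums did. On plain library totals the regulatory sums overlapped as well.

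**Figure D3:**
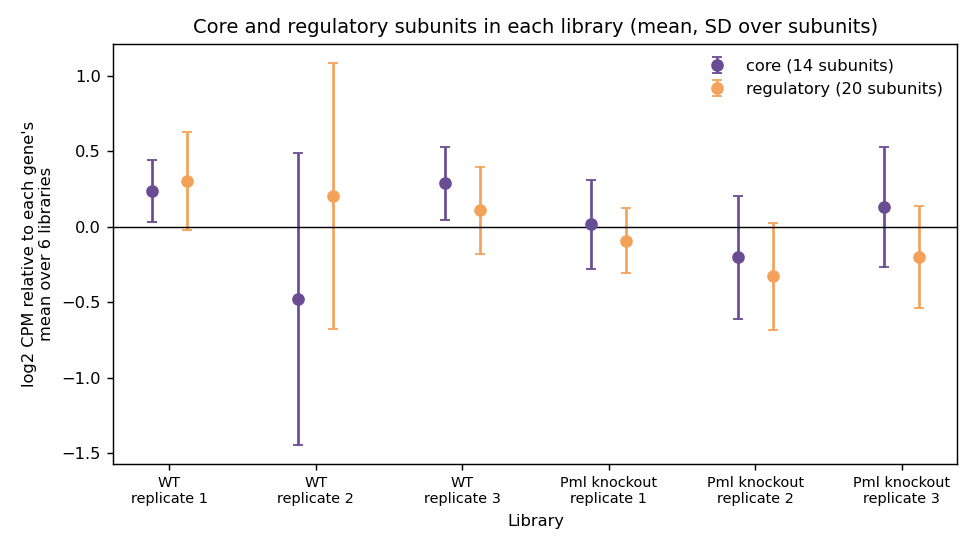
Mean log2 CPM of 14 core and 20 regulatory subunits in each library, relative to each gene's mean over 6 libraries; bars are the SD over subunits, not over replicates. In WT replicate 2 the core mean is -0.48 and the regulatory mean 0.20, with the longest bars, and regulatory means are above 0 in WT and below 0 in the knockout.

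WT replicate 2 was the library with the widest spread among subunits. The SD over members of the relative level was 0.96 (log2) in it and 0.25 to 0.40 in the other 5 libraries. It held the highest value of 12 members and the lowest of 13, shares near those of all tested genes (30.8% and 35.2%). Knockout replicate 2 held the lowest value of 15 of 34 members, where 14.46% of all tested genes were lowest in it. In WT replicate 2, subunits on the high side included Psmd13, Psmd4 and Psmc3, and those on the low side Psmb2, Psma5 and Psma2.

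The G+C content of the transcript, which the choice of members did not use, was set beside these levels. It ranged from 37.0% (Psmc6) to 58.3% (Psmd3) over 34 members, for the longest protein-coding GENCODE M21 transcript of each. The whole transcript was used although these are 3′ tag libraries, and the G+C content of the 3′ ends was not computed. Across these 34 genes the relative level in a library correlated with G+C content at Pearson's r of 0.62 and 0.46 in WT replicates 1 and 2 (Spearman's rho 0.62 and 0.49). It was -0.39 in WT replicate 3 and -0.60, -0.46 and -0.46 in knockout replicates 1 to 3 (rho -0.31, -0.66, -0.55 and -0.51). Over 10921 tested genes with a transcript the values of r were 0.35, 0.25, -0.26, -0.30, -0.22 and -0.22, in the same order. The log2 fold change of the members correlated with G+C content at r = -0.56 (rho -0.64) with all libraries and at -0.18 (rho -0.27) without WT replicates 1 and 2. Over the 10921 genes these were -0.31 (rho -0.36) and 0.05 (rho 0.03). These are descriptions across genes of the same 6 libraries, and genes are not independent replicates. After removal of the trends of each library with G+C content and length of the transcript, a setting added after the data were seen, the members' median was -0.35, 28 of 34 were below 0 and 0 passed. The median of all genes was -0.12 there, and 24 of 34 members lay below it.

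**Figure D4:**
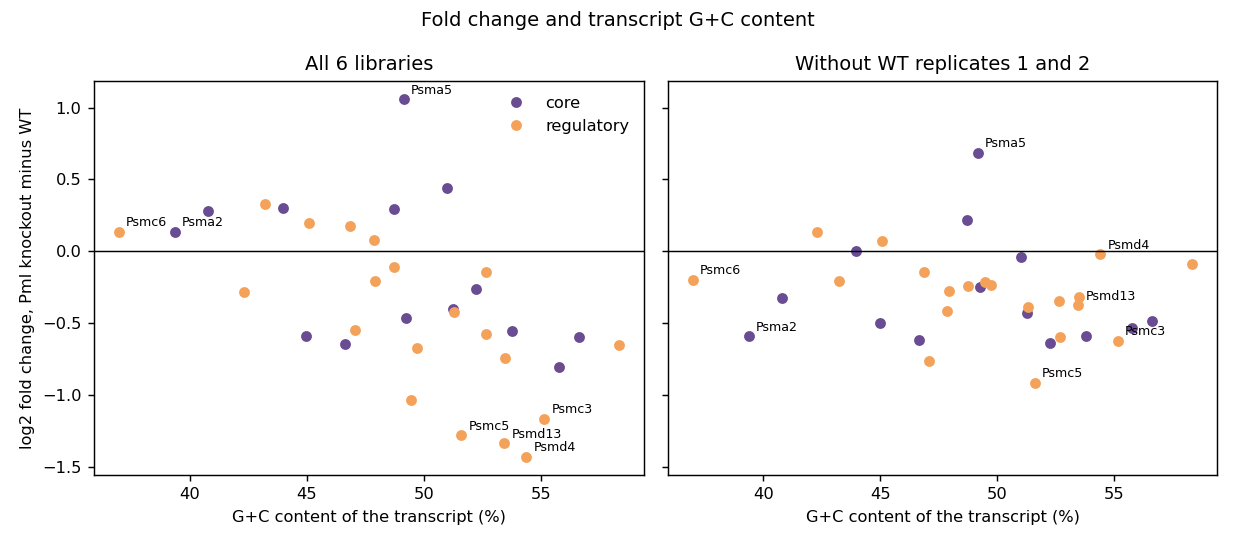
G+C content of each subunit's transcript (horizontal axis, percent) against its log2 fold change, Pml knockout minus WT (vertical axis), with all 6 libraries on the left and without WT replicates 1 and 2 on the right; purple points are core and orange points regulatory subunits. The downward slope on the left (r = -0.56) is weaker on the right (r = -0.18), where 29 of 34 points lie below 0.

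Leaving out libraries changed which subunits passed more than where the set lay. Without WT replicate 3, edgeR called 7 of 34 members lower (Psmb6, Psmc1, Psmc3, Psmc5, Psmd4, Psmd7 and Psmd13), against 7.78% of all genes lower, and 0 higher, against 4.81%. That fit keeps on the WT side only the libraries with high Rn45s and hepatocyte levels. Without WT replicates 1 and 2, where WT replicate 3 is assumed to vary like the knockout libraries, 0 of 34 passed. Of the 34, 29 were below 0 there, with a median of -0.32 beside 0.02 for all genes. Without WT replicate 2 alone, 29 were also below 0, with a median of -0.42. Leaving out the Rn45s row or the hepatocyte markers left 23 of 34 below 0. Dropping these rows leaves the members' counts unchanged, so it cannot show whether the Rn45s and hepatocyte differences affect the members.

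Other genes of the pathway were taken from lists made beside the members. The immune forms of the core had few reads: Psmb8 had 0 to 7 and Psmb9 0 to 11 per library. Of 3 tested genes of the immune form, 0 passed. Psmb10, the third immune beta subunit, had 30.1, 48.0 and 20.4 CPM in WT and 15.5 to 18.1 CPM in the knockout, without overlap (log2 fold change -0.97, SE 0.36, edgeR adjusted p 0.250; -0.32 without WT replicates 1 and 2). Psme1, a subunit of the immune activator, had -0.59 (SE 0.35) with overlapping groups, and 0.15 without WT replicates 1 and 2. Among 5 assembly chaperones of the core, 0 passed. Only 1 had no overlap, with the knockout lower, against 11.3% of all genes: Pomp, the maturation protein that helps the barrel close. It had 515.8, 461.2 and 340.5 CPM in WT and 304.8, 210.7 and 220.3 CPM in the knockout (log2 fold change -0.84, SE 0.28, edgeR adjusted p 0.238; -0.47 without WT replicates 1 and 2). Psmg1, Psmg2, Psmg3 and Psmg4 had log2 fold changes from -0.13 to 0.30, all smaller than their SE. Of 3 genes for activators and an inhibitor, 0 passed; Psmf1, the inhibitor, had -0.91 (SE 0.38) with overlapping groups and 0.05 without WT replicates 1 and 2, and Psme3, the nuclear activator, -0.37 (SE 0.26) without overlap. Among 8 genes for associated subunits and factors, 0 passed and none had an unadjusted p under 0.05. Akirin2, which carries proteasomes into the nucleus, had 0.48 (SE 0.25) and AI314180, a proteasome adaptor, 0.50 (SE 0.27). These 2 of 8 were higher in every knockout library than in any WT library, against 12.3% of all genes. Txnl1 alone was lower in every knockout library, against 11.3% of all genes.

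No upstream regulator passed. Reads of Nfe2l1 numbered 211, 138 and 232 in WT and 554, 418 and 557 in knockout libraries, that is 75.3 ± 30.8 and 78.5 ± 8.25 CPM (SD, n = 3 each), with a log2 fold change of 0.08 (SE 0.32). Without WT replicates 1 and 2 it was 0.57. Of 8 tested genes for transcriptional control, 0 passed and 0 had an unadjusted p under 0.05; the smallest p were those of Ngly1, the glycanase that activates the Nfe2l1 protein (0.55, SE 0.42), and Nrf1, the nuclear respiratory factor, a gene distinct from Nfe2l1 (-0.34, SE 0.31). Of 5 tested ubiquitin genes, 3 had lower values at an unadjusted p under 0.05, against 9.19% of all genes, and 0 passed. Uba1, the main ubiquitin-activating enzyme, had -0.98 (SE 0.34) with overlapping groups, and -0.10 without WT replicates 1 and 2. Of 15 shuttle and unfoldase factors, 0 passed. At an unadjusted p under 0.05, 2 were lower and 1 higher, against 9.19% and 6.7% of all genes. The higher one was Zfand2a, a stress-induced proteasome-associated gene. It had 4, 3 and 15 reads in WT libraries against 56, 42 and 40 in knockout libraries. On the CPM scale these were 1.19, 2.40 and 3.40 in WT against 8.43, 6.93 and 5.97 in the knockout. Its log2 fold change was 1.58 (SE 0.56, edgeR adjusted p 0.240) and 1.06 without WT replicates 1 and 2. Ubxn1, a cofactor of the unfoldase Vcp, had -1.06 (SE 0.38) and -0.05 without WT replicates 1 and 2.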

How the data were processed

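The deposited table holds raw read counts per gene symbol from 3′ tag libraries (QuantSeq forward kit, RNA integrity number above 7, 20 to 24 PCR cycles), per the labels' protocols. The authors used FastQC, HISAT2, HTSeq and edgeR on mm10, per the submitters' processing notes, with versions, annotation, strand setting and treatment of multiply mapped reads not given in the sources used here. Beside the counts it holds the authors' log2 fold changes and p-values, per the file headers, used only where named as theirs, and normalized values that the authors rounded to whole numbers, treated as a score and not used.

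The test was edgeR 4.0.16 under R 4.3.3 (filterByExpr, at least 10 counts in enough libraries and 15 in all, TMM factors, robust quasi-likelihood F test without covariates, Benjamini-Hochberg adjustment over 11317 genes). CPM are counts per 1000000 with TMM factors, given as mean ± SD over 3 libraries per genotype; SE is the log2 fold change divided by the square root of F. Relative levels use log2 CPM with a prior count of 2. CPM of a 3′ tag library do not scale with transcript length, and levels of different genes were not compared. Intervals cover counting error only. Coordinates, exons and transcript features are from GENCODE M21 (GRCm38, the assembly that mm10 names). Transcript features were matched for 10921 of the tested genes (96.5%).

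The members and gene lists were chosen with earlier results of these data known. Values in every library are given for the 3 members with the smallest p in each class, the proteolytic subunits, the largest rise and fall and the assembly chaperones, and further members were added after their values were seen; from each pathway list the 2 genes with the smallest p were named, except 1 that is not reported here. The test was checked on simulated counts. Alternatives were RLE factors, library totals, 2 other count filters, DESeq2 1.42.0, edgeR's exact test, limma 3.58.1 voom, the replicate number as a block, leaving out the Rn45s row, the hepatocyte markers, each library, or WT replicates 1 and 2, and removal of length and G+C trends. No pair of replicates agreed within sampling noise (chi-square per degree of freedom at least 9.68).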

Additional observations from a re-analysis of the deposited data

How the results depend on the processing

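In the fit reported, 1 gene passed and it was not one of the 34 tested members. The number of genes passing was 0 with RLE factors, library totals, a minimum of 5 CPM, limma voom or length and G+C trends removed, 3 with no count filter, 328 by DESeq2, 359 by edgeR's exact test and 114 without both WT replicates 1 and 2. Leaving out 1 library gave 0 to 1425 genes, the most without WT replicate 3. Members passing numbered 2 by DESeq2 and by the exact test, and 0 to 7 with 1 library left out, 7 being without WT replicate 3; all other alternatives gave 0. With the replicate number as a block, 2 genes and 0 members passed. Same-numbered WT and knockout libraries deviated from their group means with correlations of -0.0025, 0.07 and 0.19, and not every library correlated best with its own number, so the numbers were not taken as pairing the samples, and the block changed no call of a member.

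With library totals the core median was 0.078 and the regulatory median -0.050, where the median of all genes was 0.43. Dropping both WT replicates 1 and 2 gave a regulatory median of -0.26 and a core minus regulatory difference of -0.20. With 1 library left out, Psmb7 ranged from -0.056 to 0.72, Psmd14 from -0.031 to 0.70 and Psmd10 from -0.50 to 0.16, each changing sign when WT replicate 2 was absent. Dropping both WT libraries gave -0.20 for Psmd14 and 0.13 for Psmd10. Psmd5 was -0.072 with the trends removed and Psmd10 0.21 with library totals. The cause was not tested. Of 306 values under the alternatives, for members named by the rule above, 288 kept direction and side of the threshold. None of these members passed in the fit reported, and many were picked for a small p, so the count does not measure robustness of the set. Other tested members are not in it, and some of them changed sign, such as Psma2 and Psma3 without WT replicates 1 and 2. A count of 9 reads, as for Psma5 in WT replicate 2, limits the precision of that level.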
